A study of Rattus norvegicus with 14 samples.

Results

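Transcript levels of 10 marker genes of oval cells and fetal liver, Afp, Spp1, Dmbt1, Cd44, Tnfrsf12a, Cd24, Epcam, Prom1, Tspan8 and Sox4, were followed in laser-captured liver of 12 male F344 rats, an inbred strain, on Affymetrix Rat Gene ST 1.0 arrays. The genes were chosen by name with earlier results of these data known, each through the probe sets that carry its symbol and no other. Each had 1 such probe set, and together they are 10 of the 14497 genes measured. The 4 groups held 3 animals each. Normal liver came from unmanipulated rats. AAF/PH liver came from rats given a 2.5 mg pellet of 2-acetylaminofluorene (AAF) on day 1, with release over 14 days, and a partial hepatectomy on day 7, and was taken on day 14 as tissue with oval cells. Foci came from the Solt-Farber protocol, with diethylnitrosamine at 200 mg/kg on day 1, the same kind of AAF pellet on day 14, and on day 21 a partial hepatectomy plus a pellet that released placebo or rapamycin (2.5 mg/kg per day) for 21 days. Persistent lesions positive for the placental glutathione S-transferase, GSTP, were captured on day 70, so the foci were selected for that protein. All groups other than normal liver thus shared AAF and hepatectomy, and both kinds of foci shared diethylnitrosamine. Rapamycin blocks the kinase mTOR, and the pellet's release ended weeks before the foci were taken. The comparison of both kinds of foci therefore describes lesions that persisted after release of the drug had ended.

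Oval cells are small epithelial cells that spread from the terminal bile ductules when hepatocytes cannot divide, as after AAF with hepatectomy. They carry biliary genes and genes of the fetal hepatoblast, and can give rise to hepatocytes and cholangiocytes. The Solt-Farber protocol passes through an oval cell response before foci of altered hepatocytes grow out, and some of these foci progress to hepatocellular carcinoma. Of the markers, alpha-fetoprotein (Afp), osteopontin (Spp1) and Dmbt1 are secreted. Cd44 and Tnfrsf12a are receptors, of hyaluronan and osteopontin and of the cytokine TWEAK. Cd24, Epcam, Prom1 and Tspan8 are surface proteins of progenitor and ductal epithelium, and Sox4 is a transcription factor.

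RefSeq windows of the rat assembly GRCr8, from 250 bases before to 50 bases after the start of a gene, were matched by symbol for 8 of the 10 markers, with a pair of starts for Prom1 and so 9 windows. The parts before the start are shown for a pair of markers called higher than normal liver in AAF/PH liver and in neither kind of foci, Afp (chr14:17875646-17875895, minus strand) and Spp1 (chr14:5619805-5620054, minus strand). They are followed by a pair also called higher in placebo foci, Cd24 (chr20:48656227-48656476, plus strand) and Epcam (chr6:12649679-12649928, minus strand). The genes were picked after their values were seen. Capitals mark matches to 5 short motifs searched on both strands. They were AP-1, spelled TGANTCA, and TEAD, spelled GGAATG. They were also Sp1, spelled GGGCGG, and the TATA box, spelled TATAAA. The last, spelled GTTAAT, is only a part of the longer HNF1 site and is called the HNF1 motif here.
Afp: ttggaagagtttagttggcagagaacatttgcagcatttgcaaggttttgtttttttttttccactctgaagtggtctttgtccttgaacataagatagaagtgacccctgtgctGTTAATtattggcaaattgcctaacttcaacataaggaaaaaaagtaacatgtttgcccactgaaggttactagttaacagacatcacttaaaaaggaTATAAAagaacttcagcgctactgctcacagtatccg
Spp1: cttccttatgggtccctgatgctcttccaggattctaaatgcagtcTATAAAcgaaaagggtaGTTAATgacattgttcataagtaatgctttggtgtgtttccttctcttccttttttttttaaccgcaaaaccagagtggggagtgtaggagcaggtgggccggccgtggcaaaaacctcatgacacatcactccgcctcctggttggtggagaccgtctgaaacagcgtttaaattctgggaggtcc
Cd24: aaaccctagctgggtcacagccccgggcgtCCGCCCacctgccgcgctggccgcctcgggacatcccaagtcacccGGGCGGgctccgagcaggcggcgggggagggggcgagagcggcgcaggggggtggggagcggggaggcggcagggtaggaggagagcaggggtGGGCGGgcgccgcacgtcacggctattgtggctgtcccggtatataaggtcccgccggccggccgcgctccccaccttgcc
Epcam: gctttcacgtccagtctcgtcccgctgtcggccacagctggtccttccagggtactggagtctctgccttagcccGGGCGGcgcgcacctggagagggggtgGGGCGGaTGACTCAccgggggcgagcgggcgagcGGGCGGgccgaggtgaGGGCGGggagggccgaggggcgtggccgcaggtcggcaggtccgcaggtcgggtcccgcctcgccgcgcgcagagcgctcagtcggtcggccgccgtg
The Afp window held a TATA box at -37 from the start and an HNF1 motif at -135. The Spp1 window held the same motifs at -204 and -187. The Cd24 window held 3 Sp1 matches, at -220, -174 and -81, and the Epcam window held 4, at -175, -148, -114 and -98, with an AP-1 match at -141. Over all 9 windows, the Sp1 motif stood in 4, the HNF1 motif in 3, AP-1 in 2, the TATA box in 2 and TEAD in 0. Of the markers not shown, Tnfrsf12a held Sp1 matches, and so did Prom1, which was called in neither kind of foci. Prom1 held an AP-1 match at its other start, and Tspan8 an HNF1 motif after the start. Cd44, called in both kinds of foci, held none of the 5 motifs. Of the 33469 windows in the table, 33.1% held the Sp1 motif, 7.45% the HNF1 motif, 7.33% AP-1, 14.2% the TATA box and 14.2% TEAD. Only the letters given were searched, so close spellings stay unmarked, such as tatataag in the Cd24 window. A match describes the letters of a window and is neither a tested site nor a cause of the levels below.

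Values are array intensities on a linear scale, which have no true zero and are compared mainly within a gene. Sums over a fixed gene list are also compared between animals, and the brightest genes weigh most in them. The median intensity of an array, over all its probe sets, lay between 19.8 and 25.4. Cd44, Spp1, Epcam, Prom1 and Tspan8 stood below these medians in every normal liver, and Prom1 and Tspan8 did so in all foci as well. Whether their probes were above background there was not tested. Rapamycin animal 3 was hybridised on 3 arrays. The first of its RNA extracts was run on both array 3 and array 3b, and array 3c held RNA of a new laser capture. Its arrays spread less than all others, with an interquartile range over genes of 1.57 to 1.71 on the log2 scale against 1.98 to 2.80 on the 11 other arrays. Its 3 arrays were averaged as 1 animal. Differences below are on the log2 scale ± the standard error of a limma fit over all genes, and a gene was called at a Benjamini-Hochberg adjusted p under 0.05. The p-values set each difference against the spread between animals, pooled over the 4 groups and moderated over all genes.

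All 10 markers rose in AAF/PH liver over normal liver, by a median of 1.89 against a median of 0.12 over all genes. In each of the 10, every AAF/PH animal stood above every normal animal. In the same comparison 7.54% of all genes were called higher, 12.5% were called lower and 27.4% had groups that stood apart in the higher direction. The markers were chosen with earlier results of these data known. These shares are therefore a reference level and not a test of the set, here and for the foci below. In captured tissue of several cell types, more cells of a type and more RNA per cell cannot be told apart.

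**Figure D1:**
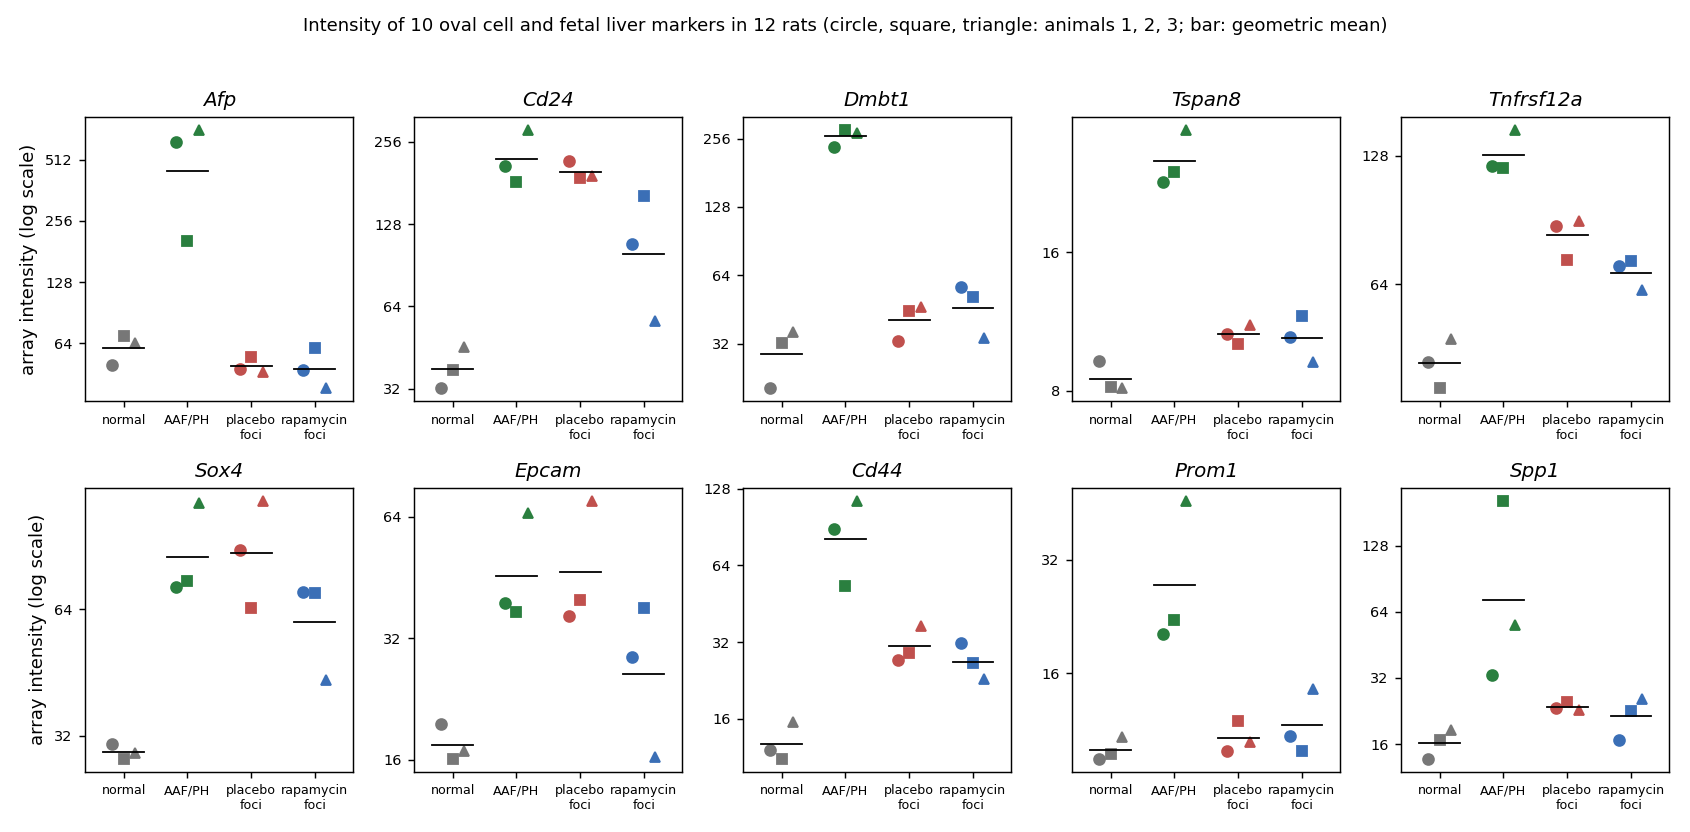
Array intensity (log axis) of the 10 markers in each animal of the 4 groups; circles, squares and triangles are animals 1, 2 and 3, and bars are geometric means. The AAF/PH animals lie above the normal animals in all 10 panels, while placebo foci overlap the AAF/PH animals in Cd24, Sox4 and Epcam and lie near normal liver in Afp, Prom1 and Tspan8.

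Of the secreted markers, Afp, the fetal counterpart of albumin, had intensities of 49.8, 69.2 and 63.8 in normal animals 1, 2 and 3 and of 623.4, 202.9 and 719.1 in the AAF/PH animals. The groups stood far apart, but AAF/PH animal 2 was well below the other two. The rise in Afp was 2.90 ± 0.36, or 7.45-fold (adjusted p = 6.80e-05, limma), and 3.47 without AAF/PH animal 2. Dmbt1, a scavenger receptor protein of mucosal epithelia, read 20.4, 32.2 and 36.1 in normal liver and 235.7, 279.6 and 271.1 in AAF/PH liver. The AAF/PH animals lay close together, and the rise of 3.19 ± 0.25, or 9.10-fold (adjusted p = 1.09e-06, limma), was the largest of the 10. Spp1, a matrix glycoprotein made by ductal cells and by activated macrophages and stellate cells, read 13.7, 16.7 and 18.5 in normal liver and 32.9, 205.3 and 55.6 in AAF/PH liver. AAF/PH animal 2, lowest for Afp and Cd44, was highest for Spp1, whose SD in this group was 1.36 on the log2 scale. The rise in Spp1 was 2.15 ± 0.45 (adjusted p = 0.0040, limma), 1.40 without AAF/PH animal 2 (adjusted p = 0.00272) and 2.72 without AAF/PH animal 1.

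Both receptors rose. Cd44 read 12.05, 11.15 and 15.6 in normal liver and 88.7, 53.1 and 115.1 in AAF/PH liver. Its groups were widely apart, with a rise of 2.67 ± 0.26, or 6.37-fold (adjusted p = 6.69e-06, limma). Tnfrsf12a, also called Fn14, read 42.2, 36.6 and 47.7 in normal liver and 120.8, 119.9 and 147.2 in AAF/PH liver. The rise was 1.62 ± 0.17, or 3.07-fold (adjusted p = 1.93e-05, limma), with little spread in either group.

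Among the surface proteins, Cd24, a small lipid-anchored glycoprotein, read 32.2, 37.4 and 45.3 in normal liver and 207.9, 182.5 and 282.9 in AAF/PH liver, a rise of 2.54 ± 0.30, or 5.82-fold (adjusted p = 4.70e-05, limma). Epcam, an epithelial adhesion molecule found on bile ducts and not on mature hepatocytes, read 19.6, 16.1 and 16.8 against 39.1, 37.2 and 65.3. It had the smallest rise of the 10, 1.39 ± 0.32, or 2.62-fold (adjusted p = 0.0070, limma). Prom1, the pentaspan protein CD133, read 9.45, 9.76 and 10.8 in normal liver and 20.3, 22.1 and 46.0 in AAF/PH liver. AAF/PH animal 3 stood above the others for Prom1 and Epcam, as it did for every marker but Dmbt1 and Spp1. The rise in Prom1 was 1.46 ± 0.26 (adjusted p = 0.00135, limma). Tspan8, a tetraspanin, read 9.28, 8.15 and 8.11 in normal liver and 22.8, 23.9 and 29.5 in AAF/PH liver, with a rise of 1.57 ± 0.17 (adjusted p = 1.86e-05, limma).

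Sox4, a transcription factor that takes part in bile duct development, read 30.6, 28.2 and 29.2 in normal liver and 72.1, 74.7 and 114.1 in AAF/PH liver. The normal animals were nearly level, and the rise was 1.54 ± 0.25, or 2.90-fold (adjusted p = 7.0e-04, limma).

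The markers thus differed in how much they varied between AAF/PH animals, though most were highest in animal 3. Relative to normal liver, their mean log2 level was higher by 1.91, 1.96 and 2.43 in AAF/PH animals 1, 2 and 3. The SD on the log2 scale was 1.36 for Spp1, 1.00 for Afp, 0.65 for Prom1 and 0.57 for Cd44, and 0.13 for Dmbt1, 0.17 for Tnfrsf12a and 0.20 for Tspan8. The summed intensity of 19 stellate cell and matrix genes also varied, from 3533 to 7323 in AAF/PH liver against 1244 to 1566 in normal liver. Relative to normal liver the mean log2 level of these genes was higher by 1.21, 2.03 and 1.59 in AAF/PH animals 1, 2 and 3, so that it was highest in the animal with the highest Spp1. Its part in the spread of Spp1 was not tested.

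Some of these markers were called higher than normal liver in placebo foci too, and others were not. Cd24, Sox4, Epcam, Cd44 and Tnfrsf12a, 5 of the 10, rose over normal liver and the others did not pass the test. The median over the 10 was 0.77 against 0.04 over all genes, where 2.84% of genes were called higher and 5.38% lower. In 7 markers every placebo animal stood above every normal animal, as in 14.8% of all genes. The 3 patterns described next were made out after the values were seen.

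Cd24, Sox4 and Epcam rose over normal liver in placebo foci and overlapped AAF/PH liver there. Cd24 read 216.7, 187.8 and 191.6 in placebo foci, well apart from normal liver and overlapping AAF/PH liver. Its rise over normal liver was 2.39 ± 0.30 (adjusted p = 1.90e-04, limma), and placebo foci minus AAF/PH liver was -0.15, with a 95% confidence interval from -0.80 to 0.49. Sox4 read 88.2, 64.2 and 115.8, a rise of 1.57 ± 0.25 over normal liver (adjusted p = 0.00135, limma). Its difference from AAF/PH liver was 0.03, with an interval from -0.51 to 0.57. Epcam read 36.3, 39.7 and 70.1, a rise of 1.42 ± 0.32 over normal liver (adjusted p = 0.0115, limma) and a difference of 0.03 from AAF/PH liver, with an interval from -0.65 to 0.71. In both Sox4 and Epcam placebo animal 3 was the highest. The Epcam call was lost without placebo animal 3 (adjusted p = 0.0506), without normal animal 3 (0.0524) or after centring each array on its median (0.0538).

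Afp, Dmbt1, Prom1 and Tspan8 did not pass the test against normal liver and fell against AAF/PH liver. Afp read 47.7, 54.6 and 46.1 in placebo foci, within or below the normal range, and was -0.29 against normal liver with an interval from -1.06 to 0.48. Against AAF/PH liver Afp fell by 3.19 ± 0.36 (adjusted p = 1.12e-04, limma). Dmbt1 read 32.8, 44.6 and 46.4, overlapping normal liver. Its difference from normal liver was 0.51 (adjusted p = 0.266), and it fell by 2.68 ± 0.25 against AAF/PH liver (adjusted p = 2.84e-05, limma). Prom1 read 9.92, 11.9 and 10.5 and Tspan8 read 10.6, 10.1 and 11.2. Prom1 overlapped normal liver, while the Tspan8 animals all stood just above it, by 0.32 (adjusted p = 0.300). Against AAF/PH liver Prom1 fell by 1.35 (adjusted p = 0.00785) and Tspan8 fell by 1.25 (adjusted p = 4.78e-04). Spp1 read 23.4, 24.8 and 23.0, all above normal liver and below AAF/PH liver, but neither difference was called. It was 0.55 against normal liver (adjusted p = 0.547, and 0.0373 in a fit of only the compared groups) and -1.61 against AAF/PH liver (adjusted p = 0.0642). Without AAF/PH animal 1 the latter was -2.17 and was called (adjusted p = 0.00782).

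Both receptors lay between the other levels. Cd44 read 27.3, 28.9 and 37.2 in placebo foci, apart from normal liver below and from AAF/PH liver above. It rose by 1.27 ± 0.26 over normal liver (adjusted p = 0.00615, limma) and fell by 1.40 ± 0.26 against AAF/PH liver (adjusted p = 0.00505, limma). Tnfrsf12a read 87.7, 73.2 and 90.0, also between both groups without overlap. Its rise over normal liver was 0.99 ± 0.17 (adjusted p = 0.00229, limma), and its difference of -0.63 from AAF/PH liver just missed the threshold (adjusted p = 0.0564). After quantile normalization that difference was called (adjusted p = 0.00307).

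Over all 10 markers, 5 fell in placebo foci against AAF/PH liver and 0 rose, with a median of -1.30 against -0.05 over all genes. In that comparison 1.57% of all genes were called lower and 2.62% higher. In 7 markers the foci stood wholly below AAF/PH liver, as in 12.8% of all genes. The comparisons with normal liver share the same normal animals, and those with AAF/PH liver the same AAF/PH animals.

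**Figure D2:**
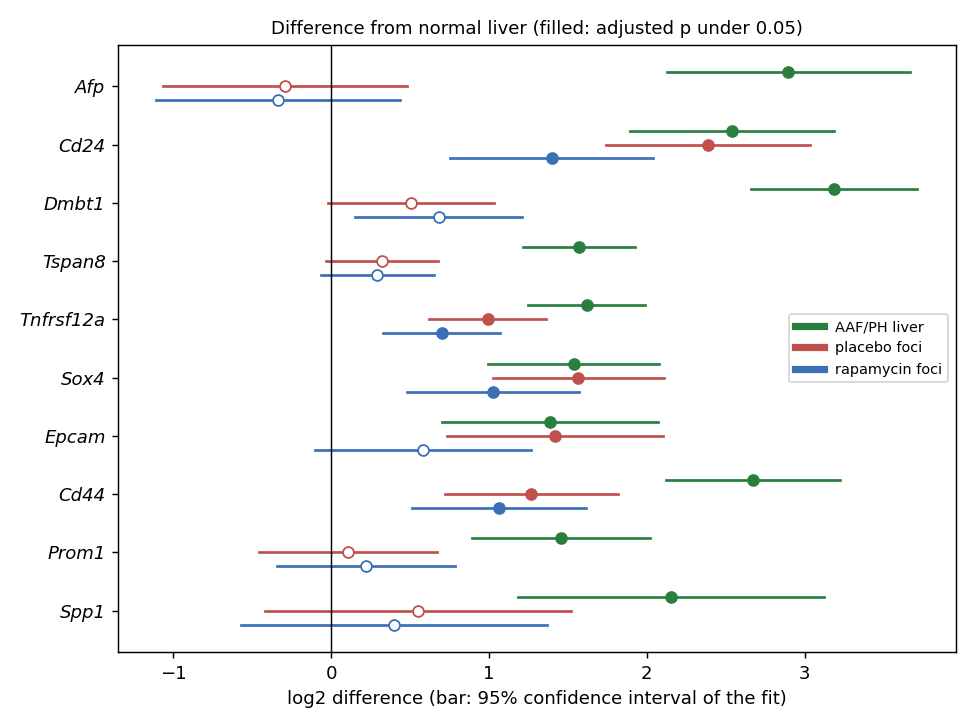
Log2 difference from normal liver of the 10 markers in AAF/PH liver, placebo foci and rapamycin foci, with 95% confidence intervals; filled points have an adjusted p under 0.05. All 10 are filled for AAF/PH liver, 5 for placebo foci and 4 for rapamycin foci, and the Afp and Prom1 intervals of the foci cross 0.

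In rapamycin foci Cd24, Cd44, Sox4 and Tnfrsf12a, 4 of the 10, rose over normal liver. The median over the 10 was 0.63 against 0.07 over all genes, where 1.60% of genes were called higher and 4.93% lower. The same number, 4, stood wholly above normal liver, as did 15.1% of all genes. Cd24 read 108.2, 162.1 and 56.7 in rapamycin animals 1, 2 and 3, all above normal liver and all below placebo foci, with animal 3 far below the other two. Its rise was 1.40 ± 0.30 (adjusted p = 0.0142, limma), and 1.80 without animal 3 (adjusted p = 3.71e-05). Cd44 read 31.6, 26.4 and 23.0 and rose by 1.07 ± 0.26 (adjusted p = 0.0245). Sox4 read 70.4, 70.0 and 43.3, again lowest in animal 3, and rose by 1.03 ± 0.25 (adjusted p = 0.0276). Tnfrsf12a read 70.5, 72.4 and 62.0 and rose by 0.70 ± 0.17 (adjusted p = 0.0274).

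These 4 calls were close to the threshold. Without normal animal 1 none of the 4 was called, where the share of all genes called in either direction fell from 6.53% to 1.55%, with adjusted p of 0.0899 for Cd24, 0.121 for Cd44, 0.102 for Sox4 and 0.113 for Tnfrsf12a. Without normal animal 2, normal animal 3 or rapamycin animal 1 only Cd24 was called, with adjusted p of 0.0367, 0.0433 and 0.0387 and with 6.10%, 1.96% and 5.95% of all genes called. Without rapamycin animal 3 the count was 6, with Dmbt1 (0.91, adjusted p = 0.0182) and Epcam (0.93, adjusted p = 0.0469) added and 6.68% of all genes called.

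The other 6 markers did not pass the test against normal liver in rapamycin foci. Epcam read 28.8, 38.1 and 16.2, so that animal 3 lay within the normal range and the others above it, and the difference was 0.58 (adjusted p = 0.245). Dmbt1 read 56.5, 51.3 and 33.7, with a difference of 0.68 (adjusted p = 0.109). Afp read 47.1, 60.6 and 38.4 and Prom1 10.9, 9.94 and 14.5, both overlapping normal liver. Tspan8 at 10.5, 11.6 and 9.24 and Spp1 at 16.8, 22.6 and 25.8 overlapped it too.

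Against AAF/PH liver, 8 markers fell in rapamycin foci, with a median of -1.26 over the 10 against -0.01 over all genes. Of all genes 1.87% were called lower, and 8.12% stood wholly below AAF/PH liver, as 9 of the markers did. The differences were -3.23 for Afp, -2.50 for Dmbt1, -1.76 for Spp1, -1.61 for Cd44, -1.28 for Tspan8, -1.24 for Prom1, -1.14 for Cd24 and -0.92 for Tnfrsf12a. The adjusted p (limma) was 1.07e-04 for Afp, 4.62e-05 for Dmbt1, 0.00187 for Cd44, 3.71e-04 for Tspan8 and 0.00598 for Tnfrsf12a. Cd24 (0.0478), Spp1 (0.0432) and Prom1 (0.0144) lost the call when single animals were left out. Cd24 lost it without AAF/PH animal 1 (0.109), 2 (0.0764) or 3 (0.229) or rapamycin animal 1 (0.108), and was at -0.74 without rapamycin animal 3 (0.0305). Spp1 lost it without AAF/PH animal 2 (-1.002, 0.0590) or 3 (0.0840) or rapamycin animal 1 (0.174) or 2 (0.0876), and Prom1 without rapamycin animal 1 (0.0633) or 2 (0.0563). Sox4 at -0.51 (adjusted p = 0.435) and Epcam at -0.81 (0.248) did not pass the test.

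No marker was called between rapamycin and placebo foci. Limma called 0% of all 14497 genes higher and 0% lower there, and 2 of the 10 markers, Cd24 and Epcam, and 483 of all genes, 3.33%, had an unadjusted p under 0.05. The mean was lower in rapamycin foci for 8 markers and higher for 2, Prom1 and Dmbt1, and the median difference was -0.18 against 0.01 over all genes. In 2 markers, Cd24 and Tnfrsf12a, every rapamycin animal stood below every placebo animal, as in 2.41% of all genes. Cd24 had the largest difference, -0.99 ± 0.30 with an interval from -1.64 to -0.35 and an adjusted p of 0.985. Epcam was at -0.84, with an interval from -1.52 to -0.15, and Sox4 at -0.54, with an interval from -1.08 to 0.00. Without rapamycin animal 3 the differences were -0.58 for Cd24, -0.49 for Epcam and -0.31 for Sox4. Without placebo animal 3 they were -0.54 for Epcam and -0.33 for Sox4. These 3 are the markers in which placebo foci overlapped AAF/PH liver, a grouping that itself used the placebo values. For Tnfrsf12a the difference was -0.29 and for Cd44 -0.20, with intervals from -0.66 to 0.08 and from -0.75 to 0.35. Afp at -0.04, Tspan8 at -0.03, Spp1 at -0.15, Prom1 at 0.11 and Dmbt1 at 0.17 had intervals that crossed 0.

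**Figure D3:**
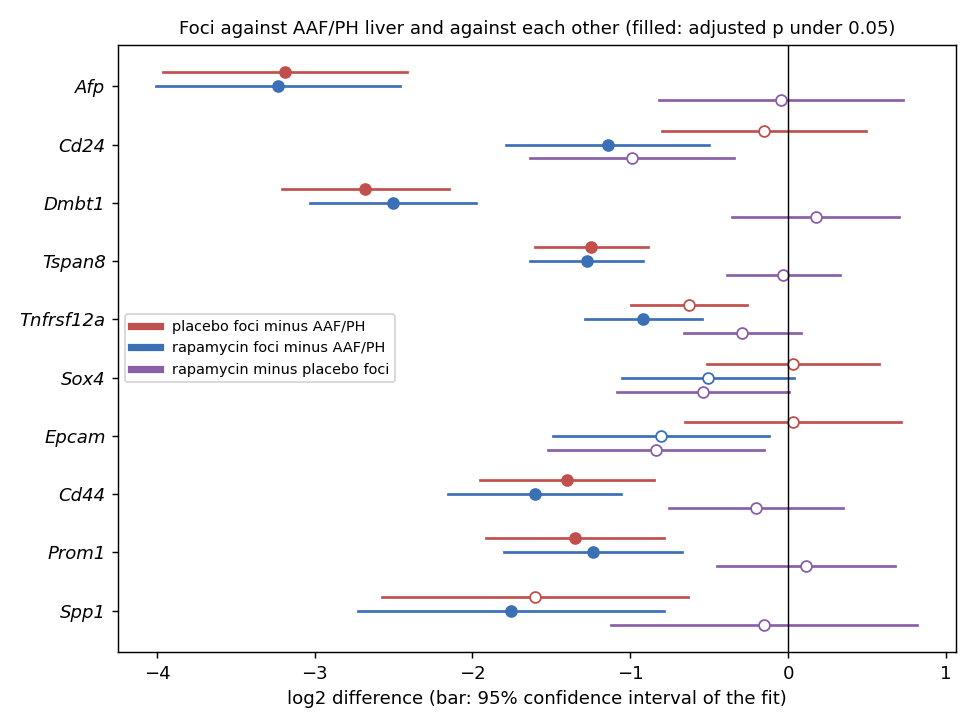
Log2 difference of the 10 markers between placebo foci and AAF/PH liver, rapamycin foci and AAF/PH liver, and rapamycin and placebo foci, with 95% confidence intervals; filled points have an adjusted p under 0.05. Of the points for rapamycin minus placebo none is filled, and the intervals of Cd24 and Epcam lie below 0.

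Rapamycin animal 3 was the lowest of its group in 8 markers and the highest in 2, Prom1 and Spp1. In Afp, Cd44 and Spp1, however, animals 1 and 2 were farther apart than animal 3 and the animal nearest to it. Against the mean of rapamycin animals 1 and 2 it differed by -1.22 in Cd24, -1.03 in Epcam, -0.70 in Sox4 and -0.68 in Dmbt1. Its repeated arrays of the same RNA differed by a median of 0.16 over the markers and by 0.38 at most. In Tnfrsf12a and Prom1 its 3 arrays ranged over 0.37 and 0.72, more than the 0.22 and 0.55 between the animals. The new capture was above the mean of the first arrays by 0.30 in Cd24 and 0.45 in Epcam, and by 0.22 in Sox4, and stayed below rapamycin animals 1 and 2 in all 3.

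**Figure D4:**
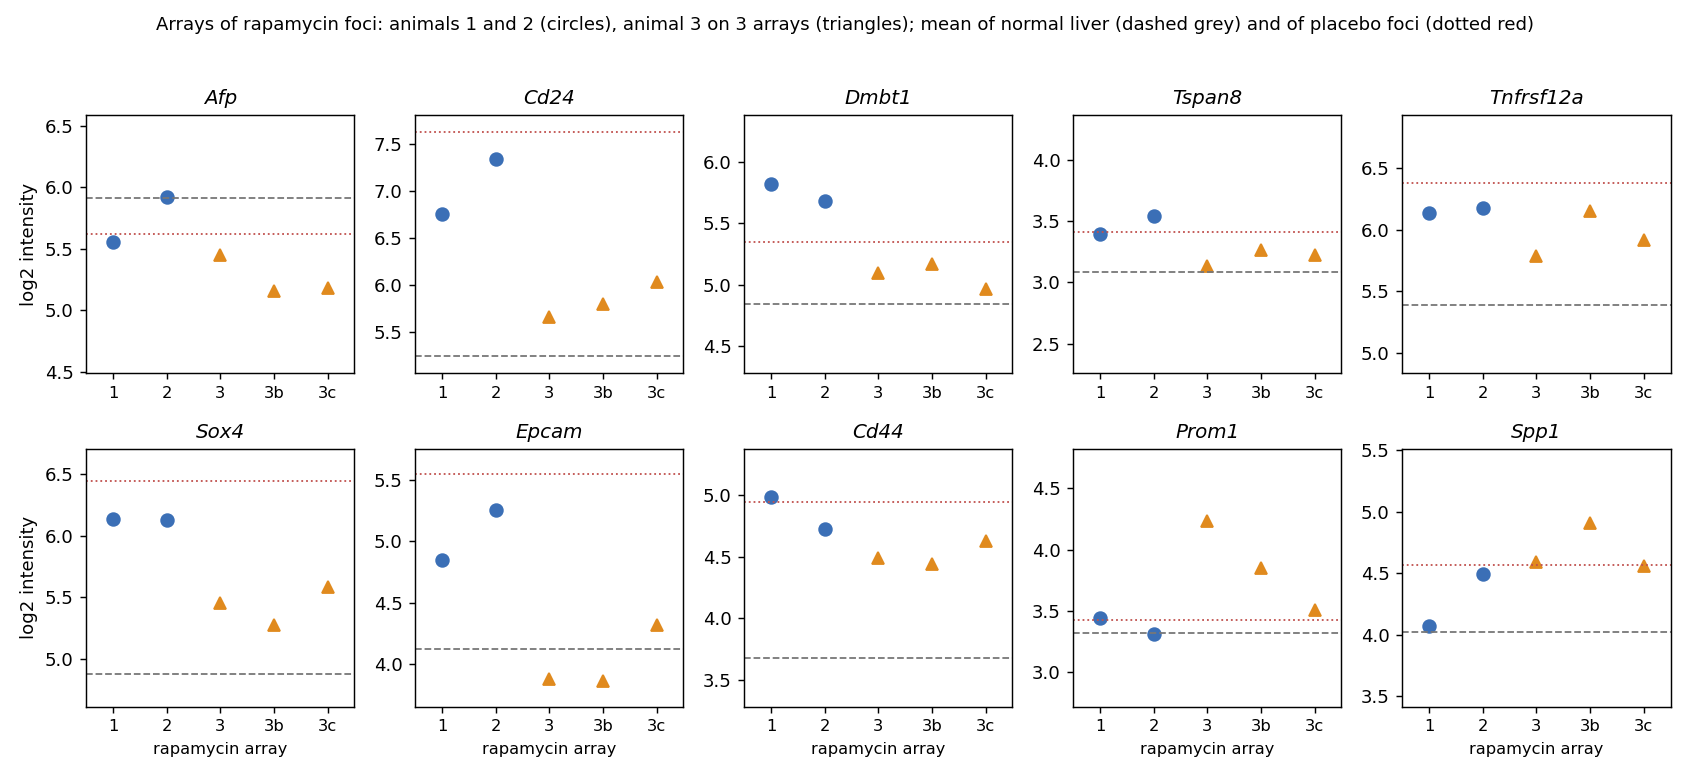
Log2 intensity of the 10 markers on the 5 arrays of rapamycin foci: animals 1 and 2 (circles) and the 3 arrays of animal 3 (triangles), with the mean of normal liver (dashed) and of placebo foci (dotted). In Cd24, Sox4 and Epcam all 3 arrays of animal 3 lie below both other animals.

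Other gene lists moved in the same animal. Relative to normal liver, the mean log2 level of 22 mature hepatocyte genes was -1.63 in rapamycin animal 3 and -0.67 and -0.53 in animals 1 and 2. For 18 macrophage genes it was -0.81 against -0.30 and -0.09, and for 10 endothelial genes -0.69 against -0.33 and -0.21. For 14 lymphocyte genes it was 0.65 against 0.38 and 0.22, and for 11 neutrophil genes 0.50 against 0.03 and 0.12. Whether these, or the narrow spread of its arrays, had a part in the low levels of Cd24, Epcam and Sox4 was not tested.

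The labels of the tissue were set against other gene lists. Against normal liver, 7.54% of all genes were called higher and 12.5% lower in AAF/PH liver. In placebo foci these shares were 2.84% and 5.38%, and in rapamycin foci 1.60% and 4.93%. Among 20 biliary and ductal genes, 9 rose and 1 fell in AAF/PH liver (median 0.59). The epithelial mucin Muc1 rose by 1.18, the tight junction protein Cldn4 by 1.13, the epithelial transcription factor Ehf by 1.43 and the serine protease St14 by 1.20. In placebo foci 4 of the 20 rose and 1 fell (median 0.44), led by Ggt1, the glutathione-processing enzyme used as a marker of foci, at 2.60 (adjusted p = 6.00e-05), and by the ductal keratin Krt19 at 2.45 (adjusted p = 0.00335). Onecut1, a transcription factor of liver and biliary development, fell there by 1.72 (adjusted p = 8.77e-04). Over the 15 alternative analyses and left-out animals of each comparison, the number of biliary genes called higher lay between 6 and 13 in AAF/PH liver and between 2 and 12 in placebo foci.

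Of 22 mature hepatocyte genes, 14 fell in AAF/PH liver (median -1.19), 12 in placebo foci (median -1.08) and 6 in rapamycin foci (median -0.97), and none rose. Their summed intensity was 41168 to 45325 in normal liver, 23650 to 26086 in AAF/PH liver, 24419 to 28923 in placebo foci and 20304 to 35817 in rapamycin foci, so that hepatocyte transcripts remained in the AAF/PH captures. The male-specific hepatocyte enzyme Cyp2c11 fell by 7.00 in AAF/PH liver (adjusted p = 3.29e-07) and fell by 4.25 in placebo foci (adjusted p = 3.37e-05).

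Of 15 further fetal liver and oncofetal genes, 7 rose and 1 fell in AAF/PH liver (median 0.69), and 0 were called in either kind of foci (medians 0.39 and 0.35). The imprinted transcript Meg3 rose by 2.02 (adjusted p = 3.03e-05), the hepatoblast surface protein Dlk1 by 1.86 (adjusted p = 0.00120) and the growth factor receptor adaptor Grb10 by 0.89, while Ahsg, which encodes the plasma protein fetuin-A, fell by 0.94. Dlk1 fell by 1.65 (adjusted p = 0.00946) and Meg3 fell by 1.54 (adjusted p = 9.90e-04) in placebo foci against AAF/PH liver, in the same direction as Afp. The number of these genes called higher in AAF/PH liver ranged from 3 to 11 over the alternatives and left-out animals, and in placebo foci from 0 to 9.

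Partners of the marker proteins gave a mixed picture. Of 15 progenitor surface genes outside the markers, 5 rose and 2 fell in AAF/PH liver (median 0.26). The chemokine receptor Cxcr4 rose by 1.36 and the adhesion molecule Ncam1 by 1.21, while Lgr4, a receptor for R-spondins, fell by 1.80 and the aminopeptidase Anpep fell by 1.72. In placebo foci 1 rose and 1 fell (median 0.12), where 2.84% of all genes were called higher and 5.38% lower. Of 15 partners of osteopontin and CD44, 5 rose and 0 fell in AAF/PH liver (median 0.58), among them Mmp2 by 1.46, which encodes a gelatinase, and the actin linkers Msn by 1.26 and Ezr by 1.68. The hyaluronan synthase Has1 rose by 0.91. In placebo foci 1 of them, Ezr, rose, by 1.65 (adjusted p = 0.00270), and 1, the hyaluronidase Hyal1, fell by 1.68 (adjusted p = 0.00776), with a median of 0.27.

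The gene of TWEAK itself, Tnfsf12, was not called in AAF/PH liver, at 0.40 (adjusted p = 0.119). Of the 10 TWEAK and NF-kB genes, 1 rose and 1 fell there (median 0.27), counts near the shares over all genes, 7.54% and 12.5%. Birc2, an inhibitor of cell death that takes part in TWEAK receptor signalling, fell by 1.30 (adjusted p = 0.00129). The signalling adaptor Traf3 rose by 0.51 (adjusted p = 0.0470), a call that ended without normal animal 1 (0.0778), 2 (0.0927) or 3 (0.160) or AAF/PH animal 2 (0.143) or 3 (0.141). It also ended with quantile normalization (0.0811), median centring (0.199) or the replicate block (0.0875). In placebo foci 1 rose and 1 fell (median 0.15), where 2.84% of all genes were called higher and 5.38% lower.

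Of 20 genes of Notch, HGF and Wnt signalling, 6 rose and 1 fell in AAF/PH liver (median 0.27). Notch3 rose by 0.86, the Notch target Heyl by 1.02 and the cell cycle regulator Ccnd1 by 1.61, while the HGF receptor Met fell by 1.72. In placebo foci 0 rose and 1 fell (median 0.03), the latter near the share of 5.38% over all genes. Of 10 genes of the YAP and TEAD pathway, which included the effectors Yap1, Wwtr1 and Tead1 and the regulator Lats2 beside target genes, 3 rose and 0 fell in AAF/PH liver (median 0.28), among them the matricellular proteins Ccn2 by 1.61 and Ccn1 by 1.19, and 1 rose in placebo foci (median 0.12). Over the alternatives and left-out animals, the genes called higher in AAF/PH liver numbered 4 to 8 for the progenitor surface genes, 4 to 9 for the osteopontin and CD44 partners, 0 to 4 for the TWEAK genes, 3 to 8 for the Notch, HGF and Wnt genes and 2 to 5 for the YAP and TEAD genes.

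Lists of other cell types were measured in the same captures. Of the 19 stellate cell and matrix genes, 13 rose in AAF/PH liver and 0 fell (median 1.57), with Col4a1 by 2.61, Col3a1 by 2.64, Tagln by 2.40 and Fbn1 by 1.99. In placebo foci 4 rose over normal liver (median 0.30) and 12 fell against AAF/PH liver (median -1.21). Of the 18 macrophage genes, 5 rose and 2 fell in AAF/PH liver (median 0.36), the latter near the share of 12.5% over all genes. Adgre1 and C1qb were among those that rose, with calls that some alternatives and left-out animals ended. The lipopolysaccharide co-receptor Cd14 fell by 2.35, and the summed intensity was 1856 to 2262 in normal liver and 2198 to 2350 in AAF/PH liver. The scavenger receptor Marco fell by 1.82 in placebo foci (adjusted p = 2.24e-04), where 1 macrophage gene rose and 2 fell. The gene that rose was Gpnmb, by 1.25, a call that several alternatives and left-out animals ended. The macrophage sum in placebo foci was 1607 to 2641. In AAF/PH liver 2 of 14 lymphocyte genes (median 0.47), 1 of 11 neutrophil genes (median 0.47) and 1 of 10 endothelial genes rose (median -0.03), counts near the share of 7.54% over all genes. Of the endothelial genes, the VEGF receptor Kdr fell by 1.27 and Tie1 rose by 0.53, a call that several alternatives and left-out animals ended. Of 22 cell cycle genes 8 rose in AAF/PH liver (median 0.51), led by Tyms at 1.93, and 7 rose in placebo foci (median 0.58), led by Ccnb2 at 1.33. The summed intensity of the stellate and matrix genes was 1463 to 2175 in placebo foci and 1054 to 1689 in rapamycin foci. For lymphocyte genes the sum was 261 to 311 in normal liver, 351 to 416 in AAF/PH liver, 293 to 343 in placebo foci and 329 to 473 in rapamycin foci. For neutrophil genes it was 153 to 215, 198 to 371, 189 to 201 and 195 to 271 in the same order, and for endothelial genes 882 to 895, 669 to 976, 632 to 814 and 487 to 763. The part of these cell types in the levels of the markers was not tested. Over the alternatives and left-out animals the genes called higher in AAF/PH liver numbered 11 to 17 for stellate and matrix genes, 0 to 9 for macrophages, 0 to 10 for lymphocytes, 0 to 8 for neutrophils, 0 to 2 for endothelium and 3 to 17 for the cell cycle.

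**Figure D5:**
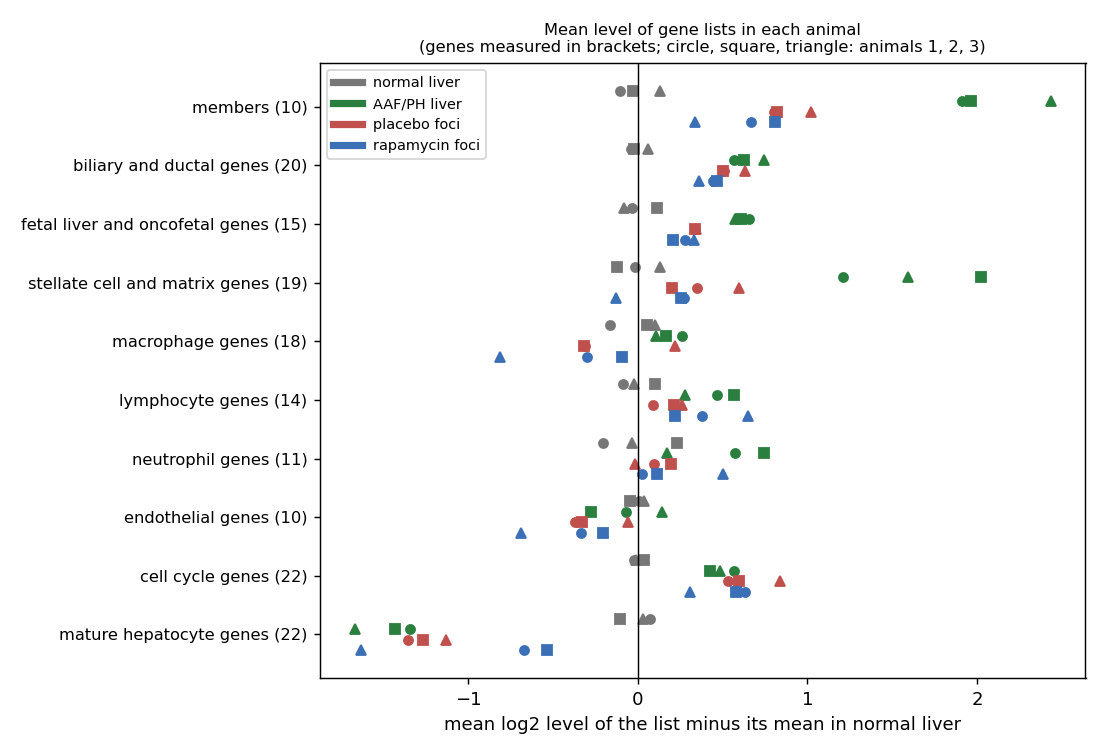
Mean log2 level of the 10 markers and of 9 other gene lists in each animal, relative to the mean of normal liver (vertical line at 0). The markers and the stellate and matrix genes have their highest values in AAF/PH liver, and in the hepatocyte and macrophage lists rapamycin animal 3 (blue triangle) lies below rapamycin animals 1 and 2.

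The genes whose profile lay nearest to each marker were found over the 12 animals, as the root mean square of the log2 difference after each gene was set to its normal mean. Among the markers, Sox4 and Epcam were nearest to each other (0.31), as were Tspan8 and Prom1 (0.31) and Dmbt1 and Cd44 (0.59). The search over all genes passed over predicted genes, olfactory and vomeronasal receptors and microRNAs, by their symbols. In it Sox4 was nearest to Ezr (0.18), Rcn1 (0.22) and Bicc1 (0.22), and Epcam to Gas6 (0.21), Cryab (0.29) and Cygb (0.31). Cd24 was nearest to S100a10 (0.32), Enc1 (0.35) and Egln3 (0.39). In S100a10, nearest to Cd24, the difference from normal liver was 2.10 in AAF/PH liver, 2.56 in placebo foci and 1.49 in rapamycin foci.

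The markers called higher in AAF/PH liver and in neither kind of foci were treated in the same way. Tspan8 was nearest to Dcdc2 (0.14), Fstl1 (0.15) and Ptma (0.18), and Prom1 to Cyth3 (0.20), Plcd4 (0.22) and Plat (0.23). Dmbt1 was nearest to Lama5 (0.36), Col4a1 (0.42) and Col3a1 (0.47). Afp had no close neighbour, with Cdkn1a (0.50), Lgals2 (0.56) and Tagln (0.56) as the nearest, and Spp1 was nearest to Fst (0.33), Col1a2 (0.43) and Aebp1 (0.45). Of the receptors, Tnfrsf12a was nearest to Ppic (0.18), Basp1 (0.19) and Adamts2 (0.20), and Cd44 to Loxl1 (0.30), Pmm1 (0.41) and Pla1a (0.41). The distances are larger for genes that move more, and all genes share the same arrays.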

How the data were processed

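RNA from laser-captured, formalin-fixed rat liver was measured on 14 arrays of 12 animals. The deposited table holds the authors' processed intensity values on a linear scale for 28826 probe sets. Partek 6.6 and RMA are named in the submitters' processing notes. Background and normalization settings are not given in the sources used here. Log2 was taken without a pseudocount. The 3 arrays run on rapamycin animal 3 gave 1 mean. Of the probe sets 15209 had 1 symbol, and the one with the highest mean per gene gave 14497 genes. With limma 3.58.1 in R 4.3.3, a single fit of the 4 group means (8 residual and 6.38 prior degrees of freedom) gave 6 two-sided contrasts with Benjamini-Hochberg adjustment over all genes. The calculation was tested on simulated data. The text names all 10 markers, up to 4 genes of smallest p per other list in AAF/PH liver or placebo foci, and 3 nearest genes per marker. A few further list genes are named for context, among them Tnfsf12, Adgre1 and C1qb. The markers and lists were chosen with earlier results of these data known. The number of arrays limits the precision, and no depth applies. Alternatives changed the normalization, a filter on dim genes, array weights, the arrays of rapamycin animal 3, the fit, and each animal in turn. Sequences came from RefSeq, assembly GRCr8.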

Additional observations from a re-analysis of the deposited data

How the results depend on the processing

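With 3 animals a group, counts near the threshold depend on single animals and settings. All 10 markers stayed higher in AAF/PH liver than in normal liver under all 15 alternatives and left-out animals. The share of all genes called there, in either direction, ran from 10.7% to 47.3%. In placebo foci 4 to 6 were called higher than normal liver (4.18% to 36.7% of all genes called). Between placebo foci and AAF/PH liver 5 to 7 were called (2.28% to 11% of all genes). No called marker changed direction in any comparison. In rapamycin foci against normal liver (4 markers, with 6.53% of all genes called) median centring gave 0 (5.99% of all genes), array quality weights 7 (30.8%), the replicate block 2 (3.83%), a fit of only the compared groups 0 (1.45%), and leaving out an animal 0 to 6 (1.55% to 14.1%). In rapamycin foci against AAF/PH liver (8 markers, 4.01%) the alternatives other than left-out animals gave 4 to 9 (1.41% to 21.4%). Among them the first array alone of rapamycin animal 3 gave 5 (3.31%) and a fit of only the compared groups 4 (1.41%). Leaving out an animal gave 5 to 8 (2.05% to 14.2%). Between rapamycin and placebo foci, array quality weights called 1 marker, Cd24 (-0.81, adjusted p = 0.0187, limma), against 0, and 536 of all genes (3.70%), also against 0. The number of all genes called moved with most of these settings, and the cause was not tested. Same-numbered animals deviated together in some pairs of groups and not in others (18 pairs, r from -0.68 to 0.38, 7 over 0.1). Among normal liver, AAF/PH liver and placebo foci, r was 0.18 to 0.35 for animals numbered 2 or 3. For number 1 it was 0.02, -0.21 and -0.01. Between rapamycin foci and these groups, r was -0.68 to -0.27 for numbers 2 and 3. Whether the shared number stands for a batch was not tested. Median centring moved the median of all genes from 0.12 to -0.08 in AAF/PH liver minus normal liver, from 0.04 to -0.07 for placebo foci and from 0.07 to -0.10 for rapamycin foci. The planned use of other probe sets of a marker was not run, since each marker has 1. The numbers called in the other gene lists were recomputed the same way, a choice made after seeing the data.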
